A study of Homo sapiens with 4 samples.

Results

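The genes described here are the 4 inhibitors of differentiation, ID1 to ID4, and 3 feedback inhibitors of bone morphogenetic protein (BMP) and transforming growth factor beta (TGF-beta) signalling, SMAD6, SMAD7 and BAMBI. They were chosen by name, as 7 of the 62710 Ensembl genes in the table, with their periplocymarin minus DMSO differences already known. Those differences are therefore given as description, with no test. HGC27 and MKN45, 2 established lines from human gastric cancers, had been kept for 24 h with 0.3 µM periplocymarin, a plant cardiac glycoside that blocks the Na,K-ATPase, or with 0.1% DMSO as vehicle, and their messenger RNA was sequenced. All 4 cultures were grown in medium with 10% serum. Each line had 1 treated and 1 vehicle library, so no value within a line can be set against replicates. Recovered reads came to 24711035 in treated and 26617966 in vehicle HGC27, and to 27474924 in treated and 36319371 in vehicle MKN45.

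Inhibitors of differentiation are small helix-loop-helix proteins without a DNA-binding region. They pair with E proteins, the general partners of basic helix-loop-helix (bHLH) factors, and keep them off DNA, and their genes are among the best known direct targets of BMP signalling. BMP ligands act through type I and type II receptors that phosphorylate SMAD1, SMAD5 and SMAD9, which enter the nucleus with SMAD4. SMAD6 and SMAD7 are inhibitory SMADs, and BAMBI is a receptor-like membrane protein without a kinase domain, and all 3 are themselves induced by the pathway they restrain.

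By marker genes, MKN45 carried epithelial and gastric or intestinal transcripts that go with the shared label of gastric cancer. HGC27 carried almost none of them. In HGC27 none of 6 epithelial markers reached 1 FPKM, and 1 of 7 gastric or intestinal markers did (MUC1). Mesenchymal markers, 4 of 5 at 1 FPKM or more, summed to 446 FPKM in the treated and 465 FPKM in the vehicle library. VIM supplied 380 and 406 FPKM of those sums, while CDH2 was at 0 and 0.0433 FPKM. In MKN45 all 6 epithelial markers were present, summing to 2902 FPKM in the treated and 1622 FPKM in the vehicle library, and mesenchymal markers summed to 0.487 and 0.456 FPKM. Within the epithelial list CDH1 was at 113 FPKM in treated and 127 FPKM in vehicle MKN45 and KRT19 at 153 and 204 FPKM, the opposite order to that of the sum. Gastric or intestinal markers, 4 of 7 at 1 FPKM or more, summed to 81.9 FPKM in treated and 175 FPKM in vehicle MKN45. The gastric or intestinal sum was thus lower in treated MKN45, and the epithelial sum higher, and their part in the ID1 and ID2 values was not tested. Endothelial markers summed to at most 0.0245 FPKM in any library and leukocyte markers to at most 2.46 FPKM, nearly all of it CD68. In bulk RNA, fewer cells with a transcript and less of it per cell cannot be told apart.

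The promoters of 4 members are shown. ID1, ID2 and BAMBI differed in opposite directions in the 2 lines, and ID3 was nearly silent in one of them. SMAD6 differed in opposite directions too, and its window is described below but not printed. Each runs from 250 bases before to 50 bases after a RefSeq start site (GRCh38.p14), 5′ to 3′ on the gene's strand. Capitals mark GGCGCC, a GC-rich element of the kind SMAD1, SMAD5 and SMAD4 bind, CAGAC, the SMAD box, and TGACG, the core of the cyclic AMP response element, on either strand.
ID1 (chr20:31605039-31605338, plus strand): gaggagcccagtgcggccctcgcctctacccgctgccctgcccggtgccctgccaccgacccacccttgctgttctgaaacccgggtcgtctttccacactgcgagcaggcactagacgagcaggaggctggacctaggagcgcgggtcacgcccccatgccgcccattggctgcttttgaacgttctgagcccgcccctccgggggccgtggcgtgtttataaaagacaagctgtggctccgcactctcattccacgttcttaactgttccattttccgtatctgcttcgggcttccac
ID2 (chr2:8681806-8682105, plus strand): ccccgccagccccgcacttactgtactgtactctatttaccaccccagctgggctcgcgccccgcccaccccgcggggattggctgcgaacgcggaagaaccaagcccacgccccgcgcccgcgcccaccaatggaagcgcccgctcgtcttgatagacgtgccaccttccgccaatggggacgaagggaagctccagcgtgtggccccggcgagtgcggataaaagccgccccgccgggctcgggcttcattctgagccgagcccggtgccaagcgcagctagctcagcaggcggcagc
ID3 (chr1:23559452-23559751, minus strand): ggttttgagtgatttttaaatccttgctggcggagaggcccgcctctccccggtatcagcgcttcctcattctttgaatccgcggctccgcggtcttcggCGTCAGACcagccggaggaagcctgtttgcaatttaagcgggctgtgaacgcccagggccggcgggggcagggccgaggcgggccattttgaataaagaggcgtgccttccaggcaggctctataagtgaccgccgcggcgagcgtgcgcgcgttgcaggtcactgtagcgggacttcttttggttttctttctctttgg
BAMBI (chr10:28677271-28677570, plus strand): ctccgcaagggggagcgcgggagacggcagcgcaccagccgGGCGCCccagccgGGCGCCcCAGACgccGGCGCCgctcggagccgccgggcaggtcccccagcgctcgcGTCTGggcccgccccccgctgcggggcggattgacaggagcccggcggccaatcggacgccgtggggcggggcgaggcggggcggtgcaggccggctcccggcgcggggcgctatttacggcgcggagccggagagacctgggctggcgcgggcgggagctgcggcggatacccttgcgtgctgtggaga

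The BAMBI window held GGCGCC at 3 places, at positions -209, -196 and -181 from the start site, and CAGAC at 2, in forward orientation at -189 and reversed at -140. The ID3 window held a reversed TGACG at -150 that overlaps a CAGAC at -147, so they appear as a single capital run. None of the 3 motifs lay in the ID1 or ID2 window, or in the SMAD6 window that is not printed. The BMP-responsive element known for ID1 lies further upstream than these bases reach. Among 35116 RefSeq promoter windows of the same length, 19.2% held GGCGCC, 45.3% CAGAC and 24.6% TGACG. All 4 printed windows were richer in G and C than the median window (58.7%). They were at 62.7% for ID1, 69.0% for ID2, 59.7% for ID3 and 80.0% for BAMBI. A match is a description of the letters and not a site of binding.

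Among the ID genes, ID1 and ID2 were much lower in the treated MKN45 library than in its vehicle, while in HGC27 they were somewhat higher, ID3 somewhat lower, and ID4 was at or near 0 in all 4 libraries. ID1 (chromosome 20, 31605283 to 31606515, plus strand, GENCODE 29), whose annotated exons merge into 1 block, was at 8.88 FPKM (fragments or reads scaled by gene length and library size) in treated MKN45 and 36.6 FPKM in vehicle MKN45. That is a 4.13-fold lower level (95% counting interval 3.62 to 4.72), from 261 and 1665 recovered reads. In HGC27 the same gene was at 49.2 FPKM in the treated and 33.1 FPKM in the vehicle library, 1.49-fold higher (1.38 to 1.60). The intervals cover counting error in a pair of libraries only. The vehicle libraries of the lines thus started close together for ID1, at 33.1 FPKM in HGC27 and 36.6 FPKM in MKN45, and the treated libraries stood 5.54-fold apart.

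ID2 (chromosome 2, 8678845 to 8684453, plus strand) followed the same course from a higher start in MKN45. It was at 14.3 FPKM in treated MKN45 and 69.9 FPKM in vehicle MKN45, a 4.91-fold lower level (counting interval 4.55 to 5.30). In HGC27 it was at 41.4 FPKM in the treated and 27.2 FPKM in the vehicle library, 1.52-fold higher (1.43 to 1.62). The order of the lines was therefore reversed: HGC27 held more ID2 than MKN45 with periplocymarin and less with DMSO. The antisense gene ID2-AS1 shares 3019 bases of genome with ID2, and no strand setting is stated, so their reads cannot be fully told apart. ID2-AS1 was at 0.141 FPKM in treated and 0.781 FPKM in vehicle HGC27, and at 0.0612 FPKM in treated and 0.864 FPKM in vehicle MKN45. It was thus lower in both treated libraries, also in the line where ID2 was higher. The pseudogene copy ID2B was listed at 0 in all 4 libraries.

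ID3 (chromosome 1, 23557918 to 23559794, minus strand) separated the lines in either condition. It was at 36.6 FPKM in treated and 42.3 FPKM in vehicle HGC27, at the 94.1 and 97.4 percentiles of genes above 0 in those libraries, a ratio of 0.866 (0.807 to 0.929). In MKN45 it was at 0.140 FPKM in the treated and 0.0544 FPKM in the vehicle library, from 5 and 3 reads, a ratio of 2.58 with a counting interval of 0.501 to 16.6 that gives no direction. ID4 was listed at 0 in 3 libraries and at 0.0240 FPKM in vehicle HGC27, so nothing can be said of its response.

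**Figure D1:**
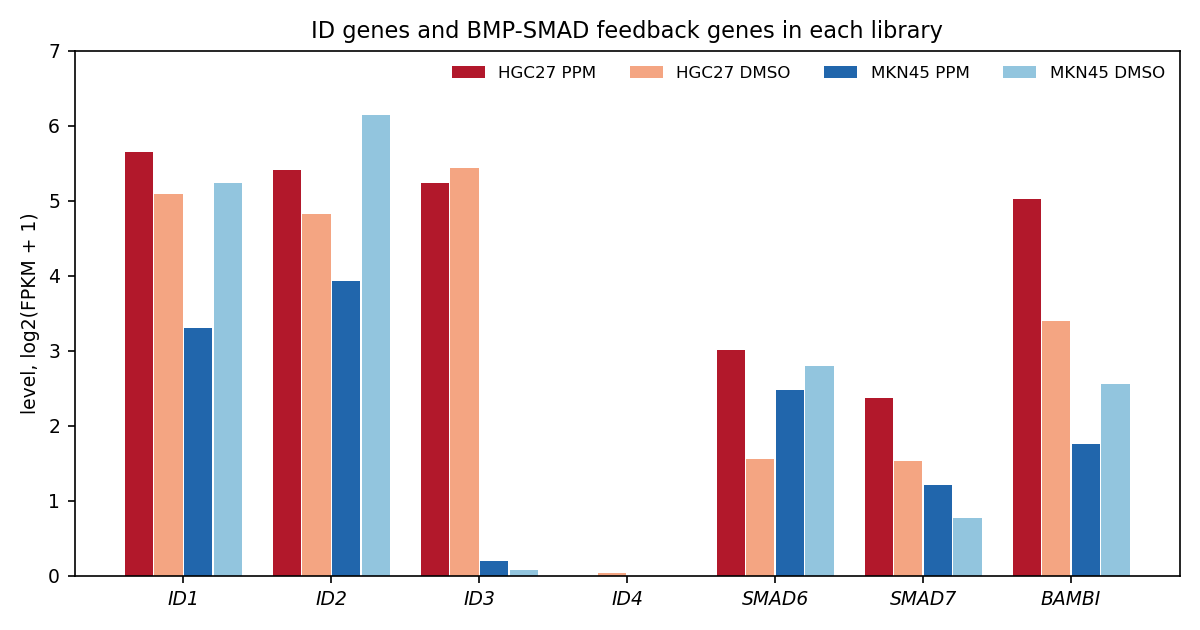
Level of each member in each library on the log2(FPKM + 1) scale, 1 bar per library (PPM, periplocymarin). ID1 and ID2 are lowest in treated MKN45, at 8.88 and 14.3 FPKM, ID3 is near 0 in both MKN45 libraries, and BAMBI is highest in treated HGC27, at 31.4 FPKM.

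Added up per length, the ID genes came to 127 FPKM in treated and 103 FPKM in vehicle HGC27, and to 23.3 FPKM in treated and 107 FPKM in vehicle MKN45. The vehicle sums of the lines were close, although ID3 made up 41.2% of it in HGC27 and 0.0510% in MKN45, where ID2 supplied 65.6%. The genes of their E protein partners (TCF3, TCF4 and TCF12) summed to 144 FPKM in treated and 83.2 FPKM in vehicle HGC27, and to 35.6 FPKM in treated and 34.0 FPKM in vehicle MKN45. The ratio of ID to E protein transcripts was therefore 0.884 in treated and 1.23 in vehicle HGC27, and 0.654 in treated and 3.13 in vehicle MKN45. In MKN45 the E protein sums were close to each other and the ID sums were not. In HGC27 the treated to vehicle ratio was 1.24 for the ID sum and 1.73 for the E protein sum as deposited. With library totals alone these came to 0.975 and 1.36, and with quantile normalization to 0.845 and 1.17, so no direction can be given for the ID sum of that line. In MKN45 the ratio of the ID sums was 0.218 as deposited and 0.187 and 0.183 under those scalings.

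Among the feedback inhibitors, SMAD6 and BAMBI were more than 3-fold higher in treated than in vehicle HGC27 as deposited. They were lower in treated MKN45, while SMAD7 was higher in both lines. With library totals alone the HGC27 ratios came to 2.83 for SMAD6 and 2.59 for BAMBI. BAMBI (chromosome 10, 28677342 to 28682939, plus strand) was at 31.4 FPKM in treated and 9.54 FPKM in vehicle HGC27, 3.29-fold higher (counting interval 3.0 to 3.61). In MKN45 it was at 2.39 FPKM in the treated and 4.87 FPKM in the vehicle library, 2.04-fold lower (1.66 to 2.52). The gap between the lines was 1.96-fold with DMSO and 13.1-fold with periplocymarin, HGC27 higher each time.

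SMAD6 (chromosome 15, 66702228 to 66782848, plus strand), which mainly restrains BMP receptors, was at 7.02 FPKM in treated and 1.95 FPKM in vehicle HGC27, 3.60-fold higher (3.26 to 3.98). In MKN45 it was at 4.58 FPKM in the treated and 5.96 FPKM in the vehicle library, 1.30-fold lower (1.20 to 1.41). SMAD7 (chromosome 18, 48919853 to 48952052, minus strand), which restrains both BMP and TGF-beta receptors, was at 4.17 FPKM in treated and 1.89 FPKM in vehicle HGC27, a ratio of 2.21 (1.75 to 2.80). In MKN45 it was at 1.32 FPKM in the treated and 0.701 FPKM in the vehicle library, a ratio of 1.88 (1.28 to 2.78). SMAD7 was the thinnest measured of the 3, with 51 to 194 recovered reads a library. Those are the smallest whole numbers that fit its values, at a length of 1973 bases against 5033 annotated, so its intervals may be too wide.

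**Figure D2:**
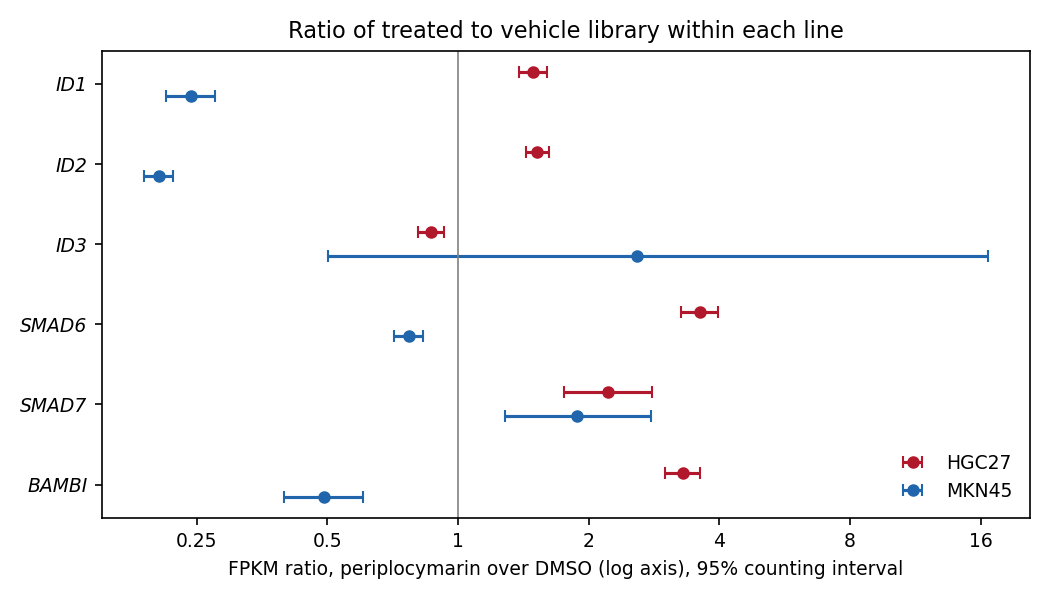
Ratio of the treated to the vehicle FPKM of each member within each line, on a log axis, with 95% counting intervals that cover counting error only (ID4 is left out, being at or near 0). For ID1, ID2, SMAD6 and BAMBI the HGC27 point lies above 1 and the MKN45 point below it, whereas SMAD7 lies above 1 in both lines.

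Genes averaging 1 FPKM or more over the libraries of a line count as measured in it, which 6 members did in HGC27 and 5 in MKN45, and differences were set on the log2(FPKM + 1) scale, which understates those of low genes. On that scale 2 of 6 members were at least 2-fold higher in HGC27 (BAMBI by 1.62 and SMAD6 by 1.44), beside 9.72% of all 11821 measured genes, and none was that much lower, beside 10.4%. In MKN45, 2 of 5 members were at least 2-fold lower (ID2 at -2.22 and ID1 at -1.93), beside 8.94% of 11895 genes, and none was that much higher, beside 8.21%. The median difference of the measured members was 0.72 in HGC27, against 0.11 over all genes, and -0.79 in MKN45, against 0.07. Of the 5 members measured in both lines 4 were higher in HGC27 and lower in MKN45, beside 14.6% of 10071 genes. On that scale no member was at least 2-fold higher in HGC27 and also at least 2-fold lower in MKN45, beside 0.0993% of those genes. BAMBI, at 1.62 and -0.79 there, was at 1.72 and -1.02 in log2 CPM from recovered reads. Because the members were chosen with these differences known, nothing is read from those shares. With libraries scaled to their totals alone, 488 genes were higher and 1937 lower in HGC27 in place of 1149 and 1228, and 565 and 1458 in MKN45 in place of 977 and 1064.

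The direction of each member but ID4, which was not recomputed, was kept within a line under both other scalings tried, but the size in HGC27 was not. Library totals alone moved the median of all genes by -0.30 in HGC27 and -0.19 in MKN45. The HGC27 differences of ID1 and ID2, 0.56 and 0.59 as deposited, became 0.22 and 0.25 with library totals alone and 0.01 and 0.07 with quantile normalization, which gives all libraries the same set of values. ID3 in HGC27 shifted downward as well, to -0.54 and -0.74 in place of -0.20. SMAD6 in HGC27 was at 1.19 with library totals alone and 1.58 with quantile normalization, in place of 1.44. BAMBI was at 1.30 and 1.28 there, in place of 1.62. In MKN45 ID1 was at -2.13 under both scalings, and ID2 at -2.43 and -2.49. The lower ID1 and ID2 of treated MKN45 thus hardly depended on the scaling, whereas their higher level in treated HGC27 did.

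**Figure D3:**
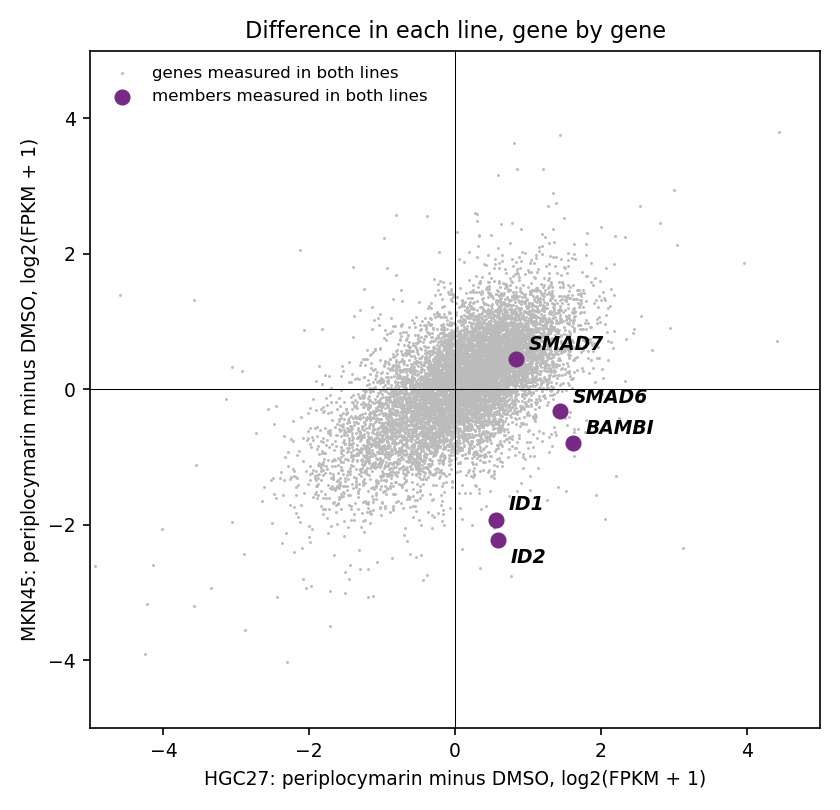
Periplocymarin minus DMSO difference on the log2(FPKM + 1) scale in HGC27 (x axis) and in MKN45 (y axis) for each of the 10071 genes measured in both lines (grey) and the 5 members among them (purple). ID1, ID2, SMAD6 and BAMBI lie at the lower right, where genes are higher in HGC27 and lower in MKN45, and SMAD7 lies in the upper right.

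Taken as the HGC27 minus the MKN45 difference, the gap was 2.80 for ID2, 2.49 for ID1, 2.41 for BAMBI and 1.76 for SMAD6, which rank 11, 18, 21 and 91 among the 10071 genes measured in both lines. For SMAD7 it was 0.40. With 4 libraries no test of a difference between lines can be made. By distance between the pairs of line differences, the gene closest to ID1 among 3187 genes outside the members that averaged 10 FPKM or more in each line was PHGDH, the first enzyme of serine synthesis. PHGDH was at 58.4 FPKM in treated and 39.7 FPKM in vehicle HGC27, and at 6.06 FPKM in treated and 24.7 FPKM in vehicle MKN45. For ID2 it was the nuclear matrix gene MATR3, with PHGDH next, and RPS18, a ribosomal protein gene, was the next for both. This MATR3 model overlaps another model of the gene and RPS18 has many copies in the genome, so their values are uncertain. ID3 was not measured in MKN45, so no genes are given as close to it.

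The vehicle libraries give the starting state. Of the 6 members that averaged 1 FPKM or more over them, ID3 was at least 2-fold higher in HGC27, beside 14.3% of 13031 genes, and ID2 and SMAD6 were at least 2-fold lower, beside 17.4%. SMAD6 was at 1.95 FPKM in HGC27 and 5.96 FPKM in MKN45. BAMBI was at 9.54 FPKM in HGC27 and 4.87 FPKM in MKN45, a difference of 0.84 that came to 1.08 with library totals alone. SMAD7 was at 1.89 FPKM in HGC27 and 0.701 FPKM in MKN45, a difference of 0.76 that came to 1.31 with a pseudocount of 0.1 FPKM. ID1 differed by -0.14 on the log2(FPKM + 1) scale, and this turned to 0.11 with library totals alone, so no order of the lines can be given for it.

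The rest of the pathway was examined through 136 genes in 12 lists by role, of which 78 could be tested over both lines with limma, cell line as a block. Of these, 5 rose, 1 fell and 72 did not pass, beside 3.42% rising and 3.17% falling among all 12352 genes tested. The median fitted log2 fold of the 78 was 0.24, against 0.06 over all genes. Within the lines, 17 of 78 measured pathway genes were at least 2-fold higher in HGC27, beside 9.72% of all measured genes, and 6 lower, beside 10.4%. In MKN45, 5 of 60 were higher, beside 8.21%, and 1 lower, beside 8.94%. The lists were chosen with earlier results of these data known, so these shares, medians and calls are description. With 2 lines as the units the fit leaves each gene 1 residual degree of freedom, and limma passed no gene at all without the line block (2 of the 78 had an unadjusted p under 0.05) or with no filter on low values (15 of 123). Library totals alone gave 356 rising and 1141 falling genes in all, in place of 423 and 391.

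Of 14 BMP and GDF ligand genes 4 could be tested and 1 rose. BMP4, a ligand that induces ID genes in many cell types, was at 10.6 FPKM in treated and 1.77 FPKM in vehicle HGC27, and at 38.3 FPKM in treated and 17.4 FPKM in vehicle MKN45. It rose by 1.58 ± 0.32 on the log2 scale (moderated SE, 2 lines, limma adjusted p = 0.0292), upward in both lines. The transcript of this ligand was thus higher in both treated libraries, while ID1 and ID2 were higher in one line and lower in the other. Of 17 TGF-beta, activin and nodal ligand genes 5 could be tested, none rose and INHBE, the activin beta E subunit, fell by 2.16 ± 0.44 (limma adjusted p = 0.0292), to 6.08 FPKM in treated HGC27, against 63.5 FPKM in its vehicle. In MKN45 it was at 0.0551 FPKM in the treated and 1.30 FPKM in the vehicle library, from 4 and 146 reads and with a mean under 1 FPKM. Its fitted fold was -3.27 with a pseudocount of 0.1 FPKM and -3.55 with limma-voom on recovered reads.

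None of the 9 tested receptor genes passed. BMPR1A, a type I receptor for BMPs, was at 16 FPKM in treated and 7.51 FPKM in vehicle HGC27 but at 5.24 and 5.51 FPKM in treated and vehicle MKN45. BMPR1B, another, was at 2.06 FPKM in treated and 0.550 FPKM in vehicle MKN45, and at 2.47 and 1.79 FPKM in treated and vehicle HGC27. TGFBR2, the type II receptor for TGF-beta, was at 58.8 FPKM in treated and 28.8 FPKM in vehicle MKN45 and at 0.0682 and 0.0860 FPKM in treated and vehicle HGC27. TGFBR2 was thus near 0 in both HGC27 libraries, while these BMP receptor genes were measured in both lines.

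None of the 5 tested co-receptor genes passed. TGFBR3, or betaglycan, was at 5.26 FPKM in treated and 1.97 FPKM in vehicle HGC27 and at 5.13 FPKM in treated and 2.17 FPKM in vehicle MKN45 (fitted 1.01 ± 0.29, limma adjusted p = 0.0648). Endoglin (ENG) was at 4.58 FPKM in treated and 10.4 FPKM in vehicle HGC27 and listed at 0 in both MKN45 libraries. Neogenin (NEO1), which binds repulsive guidance molecules, was at 7.05 FPKM in treated and 5.72 FPKM in vehicle HGC27, a ratio of 1.23. In MKN45 it was at 2.16 FPKM in the treated and 4.65 FPKM in the vehicle library, the opposite order with the deposited scaling. Library totals alone took the HGC27 ratio of ID1 from 1.49 to 1.17. NEO1 had 1352 of 24711035 recovered reads in treated and 1502 of 26617966 in vehicle HGC27. By those totals its part was slightly smaller in the treated library, so NEO1 did not keep its HGC27 direction. BAMBI kept its direction in HGC27, at 2.59 with library totals alone.

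None of the 6 SMAD genes outside the members passed. SMAD5, which carries the BMP signal, was at 10.0 FPKM in treated and 13.5 FPKM in vehicle HGC27, and at 15 FPKM in treated and 10.4 FPKM in vehicle MKN45. SMAD9, of the same class, was at 7.47 FPKM in treated and 11 FPKM in vehicle HGC27 and at 0 and 0.0977 FPKM in treated and vehicle MKN45. SMAD3, which carries the TGF-beta signal, was at 12.2 FPKM in treated and 6.24 FPKM in vehicle MKN45, and at 4.10 and 4.23 FPKM in treated and vehicle HGC27. SMAD4, the partner common to both branches and named here after its values were seen, was at 6.37 FPKM in treated and 4.36 FPKM in vehicle HGC27. In MKN45 it had 0 reads in the treated and 3 reads in the vehicle library, so its transcript was nearly undetected in the line where ID1 and ID2 were lower with the drug. It was near 0 there with and without periplocymarin, and its part in the ID1 and ID2 values was not tested.

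Of 17 extracellular antagonist genes 7 could be tested and 2 rose. CRIM1, a membrane protein that tethers BMPs, was at 20.0 FPKM in treated and 5.93 FPKM in vehicle HGC27, and at 44.9 FPKM in treated and 10.9 FPKM in vehicle MKN45. It rose by 1.77 ± 0.28 (limma adjusted p = 0.0233). TWSG1, or twisted gastrulation, which binds BMPs together with chordin, was at 31.0 FPKM in treated and 8.77 FPKM in vehicle HGC27 and at 20.3 FPKM in treated and 10.0 FPKM in vehicle MKN45. It rose by 1.33 ± 0.30 (limma adjusted p = 0.0376) and did not pass with quantile normalization.

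None of the 13 tested intracellular inhibitors passed. SMURF1, a ubiquitin ligase for BMP SMADs, was at 16.9 FPKM in treated and 6.76 FPKM in vehicle HGC27 and at 17.8 FPKM in treated and 12.2 FPKM in vehicle MKN45. LEMD3, an inner nuclear membrane protein that holds SMADs, was at 11.1 FPKM in treated and 3.91 FPKM in vehicle HGC27 and at 20.0 FPKM in treated and 12.2 FPKM in vehicle MKN45 (fitted 0.98 ± 0.30, limma adjusted p = 0.0719). NEDD4L, a ubiquitin ligase for TGF-beta SMADs, was at 5.12 FPKM in treated and 2.31 FPKM in vehicle MKN45 and below 1 FPKM in both HGC27 libraries. For SMURF1 and LEMD3 the treated library was the higher in both lines.

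Among other BMP target genes none of 8 tested passed. The homeobox gene MSX2 was at 116 FPKM in treated and 70.3 FPKM in vehicle HGC27, and at 6.64 FPKM in treated and 11.7 FPKM in vehicle MKN45, again higher in one line and lower in the other. MSX1, its relative, was at 13.6 FPKM in treated and 5.42 FPKM in vehicle HGC27 and at 1.21 and 1.10 FPKM in treated and vehicle MKN45. The T-box gene TBX3 was at 19.5 FPKM in treated and 6.78 FPKM in vehicle HGC27 and at 1.19 and 1.25 FPKM in treated and vehicle MKN45. All 3 thus had their higher level in treated HGC27, while in treated MKN45 MSX2 was lower and MSX1 and TBX3 differed little from vehicle. Of 10 TGF-beta target genes 7 could be tested and CCN2, also a target of YAP and SRF, rose by 1.78 ± 0.29 (limma adjusted p = 0.0233), to 6.50 FPKM in treated HGC27, against 1.41 FPKM in its vehicle, and to 26.2 FPKM in treated MKN45, against 6.16 FPKM in its vehicle.

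None of the 3 E protein genes passed. TCF12 was at 85.0 FPKM in treated and 42.1 FPKM in vehicle HGC27 and at 17.3 FPKM in treated and 13.4 FPKM in vehicle MKN45. TCF3 was at 49.8 FPKM in treated and 36.4 FPKM in vehicle HGC27 and at 18.3 FPKM in treated and 20.6 FPKM in vehicle MKN45. TCF4 was at 9.17 FPKM in treated and 4.70 FPKM in vehicle HGC27 and at most 0.00372 FPKM in MKN45, so 2 of the 3 E protein genes were measured in MKN45.

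None of the 7 tested genes of other bHLH factors passed. HES1, a repressor induced by Notch, was at 7.40 FPKM in treated and 1.87 FPKM in vehicle HGC27 and at 25.1 FPKM in treated and 17.1 FPKM in vehicle MKN45. HES6, which counters HES1, was at 0.999 FPKM in treated and 5.55 FPKM in vehicle HGC27 and at 1.78 FPKM in treated and 3.35 FPKM in vehicle MKN45. The clock repressor BHLHE41 was at 3.19 FPKM in treated and 8.50 FPKM in vehicle HGC27 and below 1 FPKM in both MKN45 libraries. Of 4 genes of ID protein turnover CDC20, an activator of the anaphase-promoting complex and a gene of mitosis, rose by 1.22 ± 0.26 (limma adjusted p = 0.0332), and no other gene of that list passed. Under quantile normalization CDC20 missed the threshold too. CDC20 was at 196 FPKM in treated and 83.9 FPKM in vehicle HGC27, and at 107 FPKM in treated and 45.3 FPKM in vehicle MKN45.

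**Figure D4:**
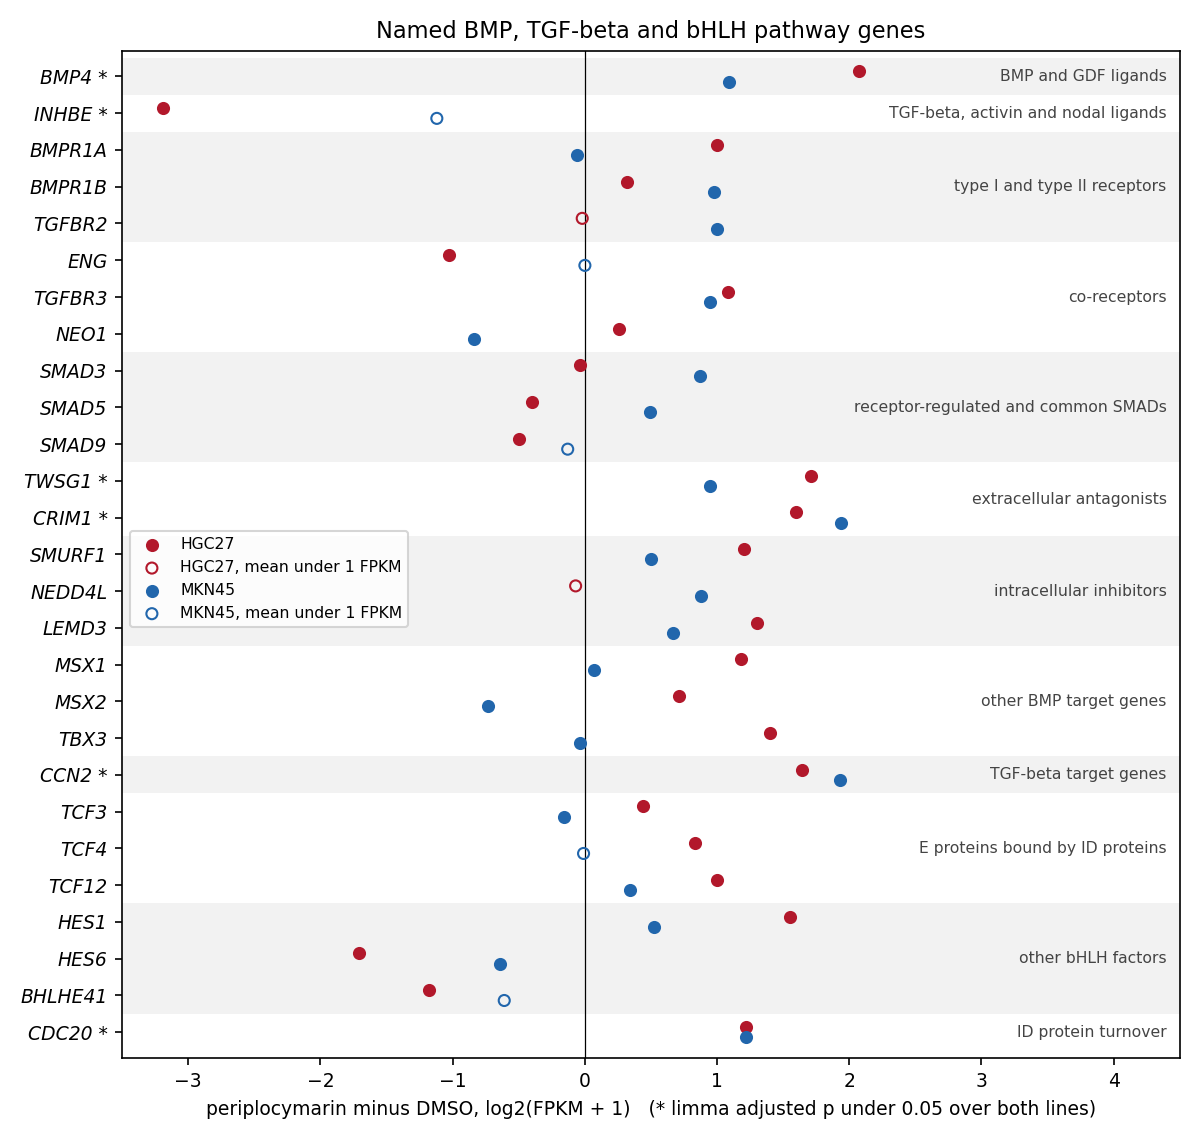
Periplocymarin minus DMSO difference on the log2(FPKM + 1) scale for the named pathway genes, grouped by list, with HGC27 in red and MKN45 in blue (open points, a mean under 1 FPKM in that line) and * for a limma adjusted p under 0.05 over both lines. BMP4, TWSG1, CRIM1, CCN2 and CDC20 lie above 0 in both lines and INHBE below 0, while NEO1 and MSX2 lie on opposite sides with the deposited scaling.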

How the data were processed

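Poly(A) RNA libraries of HGC27 and MKN45, 1 per line and treatment, were analysed from 1 table of 62710 Ensembl genes. Groups came from the sample titles. The authors deposited FPKM, as the values show (no header names the unit). For upstream steps, fastp 2.0, HISAT2 2.1.0 and build hg38 are listed without a role, per the submitters' processing notes. The counter, annotation and strand setting were not given in the sources used here. Symbols matched 62639 IDs.

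Reads were recovered from the FPKM steps with GENCODE 29 lengths, or a searched length (the valid length within 5% of the annotated, else the shortest). At a tolerance of 0.0001 reads, 15204 of 30457 genes were whole at the annotated length, and all 20299 genes above 0 in at least 3 libraries at either length, the searched ones by a free choice of length. The scaling implied by the deposited FPKM differed from the recovered totals by factors of 0.953 and 1.21 in treated and vehicle HGC27 and 0.868 and 1.01 in treated and vehicle MKN45. Counting intervals (95%, Clopper-Pearson) were taken on the treated library's part of a gene's reads. They cover counting error only.

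Treatment over both lines was fitted with limma 3.58.1 (R 4.3.3) on log2(FPKM + 1), trend moderation, cell line as a block (the shared line pairs the libraries), for genes averaging 1 FPKM and 10 recovered reads or more, with Benjamini-Hochberg adjusted p under 0.05 as threshold. A value after ± is the moderated SE, with 8.51 prior degrees of freedom. The procedure was tested on simulated data. Members and gene lists were chosen with earlier results of these data known. Named were all members, pathway genes past the threshold or else the 3 measured genes of a list with the largest difference in either line, and the 3 nearest genes to ID1 and to ID2.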

Additional observations from a re-analysis of the deposited data

Results flagged for a closer look

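Flagged were members and named pathway genes measured in both lines that were higher in one treated line and lower in the other. Their counting intervals of the ratio had to leave out 1 in both lines. With the deposited scaling these were ID1, ID2, SMAD6 and BAMBI, and 4 of the named pathway genes. The HGC27 ratio of NEO1, 1.23, was small, and NEO1 was slightly lower in treated HGC27 with library totals alone. The HGC27 minus MKN45 gap of the periplocymarin minus DMSO differences, on the log2(FPKM + 1) scale, was 2.49 for ID1, 2.80 for ID2, 1.76 for SMAD6 and 2.41 for BAMBI. Among the pathway genes it was 1.10 for NEO1, 1.44 for MSX2, 0.60 for TCF3 and -0.89 for SMAD5, the only pathway gene of these 4 that was lower in treated HGC27 and higher in treated MKN45. None of these gaps was tested, since each line has 1 library per arm. For the pathway genes no values with quantile normalization are given, so their directions there are not known. The HGC27 ratio of TCF3, 1.37, was smaller than the 1.49 of ID1. For ID1 and ID2 the HGC27 difference came to 0.01 and 0.07 with quantile normalization, and their gap then came almost wholly from MKN45.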

How the results depend on the processing

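Of 48 recomputed within-line differences of members, under 4 alternatives, none turned its sign, and 16 moved beyond their counting interval. A smaller pseudocount cannot turn a sign, and log2 CPM kept the deposited scaling. Only library totals alone and quantile normalization could therefore have turned a direction. The count of members at least 2-fold higher in HGC27 was 2 as deposited and 1 at a floor of 10 FPKM, where SMAD6 is below the floor. It was 3 with a pseudocount of 0.1 FPKM, quantile normalization or log2 CPM from recovered reads. Of all genes, 738 were that much higher in HGC27 with quantile normalization, in place of 1149. With log2 CPM, 3 members in place of 2 were at least 2-fold lower in MKN45. For the pseudocount, the floor and log2 CPM no share of all genes is given, so nothing is read from these member counts. With a pseudocount of 0.1 FPKM, library totals alone, limma-voom on recovered reads or a floor of 10 FPKM, the genes that rose or fell over both lines numbered 753 and 730, 356 and 1141, 880 and 678, or 1055 and 199, in place of 423 and 391. With quantile normalization they numbered 180 and 349. Among the 78 pathway genes tested, in place of 5 rising and 1 falling, 3 rose with quantile normalization. With a pseudocount of 0.1 FPKM, library totals alone and limma-voom, 2, 3 and 2 fell. The floor of 10 FPKM left fewer genes to test, 4453 in place of 12352. There 8 of 23 pathway genes rose, beside 1055 of all 4453, and 84.1% of all calls were upward. With no low-value filter, or without the replicate block by cell line, limma called 0 genes in either direction, of all genes and of the pathway genes, and 4306 and 696 genes had an unadjusted p under 0.05. The fitted folds of BMP4, INHBE, CRIM1 and CCN2 passed under each alternative except those 2 settings. Of the 3 genes nearest to ID1 and the 3 nearest to ID2, 1 and 1 were kept at a floor of 30 FPKM. PHGDH and MATR3 averaged under 30 FPKM in MKN45, so that floor removed them whatever their pattern. It therefore cannot show how stable these neighbours are. Leaving out a library leaves no residual degree of freedom and was not run. The causes were not tested. ID3 had 5 reads in treated and 3 in vehicle MKN45.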

Other observations

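A few pathway genes that no rule named, chosen after their values were seen, differed by large factors in HGC27. The BMP and Wnt antagonist gene SOSTDC1 was at 4.26 FPKM in treated and 27.8 FPKM in vehicle HGC27, and at 1.63 and 2.11 FPKM in treated and vehicle MKN45 (fitted -1.35 ± 0.46, limma adjusted p = 0.0959). The ligand gene BMP5 was at 31.2 FPKM in treated and 10.5 FPKM in vehicle HGC27 and at most 0.116 FPKM in MKN45. The activin and myostatin antagonist gene FSTL3 was at 17.5 FPKM in treated and 4.96 FPKM in vehicle HGC27, and at 0.595 and 1.19 FPKM in treated and vehicle MKN45. TGFB2 was at 7.89 FPKM in treated and 2.79 FPKM in vehicle HGC27 and listed at 0 in MKN45. None of these 4 passed the test over both lines.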
